A study of Equus caballus with 21 samples.

Results

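The genes described here are CD74, DRA and B2M, which act in the presentation of peptide antigens to T cells. They were taken by gene ID or symbol (Entrez 100071644, 100051944 and 100034203) and make up 3 of the 24942 gene IDs in the count table. Expression was measured by RNA sequencing of endometrium, the lining of the uterus, from warmblood mares. Laser capture microdissection isolated 3 compartments from biopsies: the luminal epithelium, which lines the uterine cavity, the epithelium of the glands and the stroma. Mares were biopsied on day 12, with days counted from ovulation, in a cycle with insemination shortly before ovulation (pregnant) and in a control cycle (cyclic). Ovulation had been induced with human chorionic gonadotropin in both states. The groups were pregnant luminal epithelium (4 libraries), cyclic luminal epithelium (5), pregnant glandular epithelium (4), cyclic glandular epithelium (4), pregnant stroma (2) and cyclic stroma (2). The letters B, C, J, M and U name 5 mares, although the submitters' protocol speaks of 6. Mares B, C, M and U gave luminal and glandular libraries in both states, mare J gave a cyclic luminal library alone, and the states of the stroma shared only mare M. No age or genotype is given in the labels.

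Class II molecules of the major histocompatibility complex carry peptides from endosomes to helper T cells. DRA encodes the alpha chain of the class II molecule DR, and CD74 encodes the invariant chain, which occupies the peptide groove of new class II molecules and takes them to the endosome. B2M encodes beta-2 microglobulin, the light chain that class I molecules need to reach the cell surface, where they show peptides from the cytosol. Class I is made by nearly all nucleated cells, whereas class II is known mainly from leukocytes and from epithelia exposed to interferon gamma.

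Total counts ranged from 136259 to 440188 in pregnant and 324704 to 1382614 in cyclic luminal libraries, from 486316 to 1467510 in pregnant and 222623 to 1079351 in cyclic glandular libraries, and from 202545 to 1175127 in pregnant and 138441 to 241309 in cyclic stromal libraries. The ribosomal RNA gene RN18S took 66.2% of the counts in pregnant stromal mare M, the highest share, and 0.82% in pregnant stromal mare U. Its share was 0.45% in pregnant luminal mare M and 0.29% in cyclic glandular mare M, the lowest shares. A floor of 3 counts stood at 1.70 to 20.3 CPM (read counts normalised to the scaled library size), and this floor covers counting error only, since amplified reads are not independent molecules. Pregnant luminal mare M and cyclic glandular mare M held the fewest counts of their compartments and are absent from the smaller of the authors' tables of scaled signal, so results that rest on them are also given without them. The compartments were told apart by their markers, with exceptions. Summed luminal markers ran from 2125 to 13061 CPM in luminal libraries and from 135 to 731 CPM in glandular libraries, and the glandular markers P19, SCGB1A1 and CXCL14 were lower in luminal epithelium. COL1A1, a collagen gene of the stroma, was nevertheless higher in luminal than in glandular epithelium (log2 fold change 2.87 ± 0.52, edgeR adjusted p = 3.01e-06), and its part in the results was not tested. Of the general epithelial markers, CLDN4 was higher (3.76 ± 0.76, adjusted p = 3.92e-05) and EPCAM lower in luminal epithelium (-1.67 ± 0.385, adjusted p = 0.000591). LGALS3, of the luminal list, did not pass (0.97 ± 1.41, adjusted p = 0.885). Of the 4 genes on each of the luminal and glandular lists, 3 had a count. WNT7A, of the luminal list, and FOXA2, of the glandular list, had none in any library. Summed epithelial markers of cyclic luminal mare M (457 CPM) lay below those of cyclic stromal mare B (553 CPM). Stroma markers summed to 5028 CPM in pregnant luminal mare M, the library with the highest DRA level, which lay inside the range of the stromal libraries (4053 to 9906 CPM), while the other luminal libraries held 609 to 2206 CPM. Pregnant stromal mare M held 5583 CPM of glandular markers, more than any luminal library. In tissue pieces, more RNA per cell and more cells of a type cannot be told apart.

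CD74 was the member most tied to the luminal epithelium. It stood at 5935 CPM in mare B, 8355 in C, 4234 in M and 1799.95 in U in pregnant luminal epithelium, and at 4887 in B, 2219.99 in C, 2479 in J, 2309 in M and 1394 in U in cyclic luminal epithelium. In glandular epithelium it stood at 402, 211, 197 and 284 CPM in pregnant mares B, C, M and U, and at 243, 639, 311 and 68.8 CPM in the same mares in the cycle. The lowest luminal library thus lay above the highest glandular one, as was so for 0.362% of the genes tested between these epithelia. In stroma CD74 reached 1175 CPM in M and 819 in U in pregnancy, and 1109 in B and 1021 in M in the cycle, which placed all 4 stromal libraries between the glandular and the luminal ones. The group means were 5081 ± 2765 CPM (SD, n = 4) in pregnant luminal, 2658 ± 1314 (n = 5) in cyclic luminal, 274 ± 93.7 (n = 4) in pregnant glandular, 315 ± 239 (n = 4) in cyclic glandular, 997 ± 252 (n = 2) in pregnant stromal and 1065 ± 62.5 (n = 2) in cyclic stromal libraries. In the order of these means, cyclic luminal epithelium did not overlap with cyclic stroma, nor pregnant stroma with cyclic glandular epithelium, while the other neighbours overlapped. The share of all genes with stroma between the epithelia in this way was not counted, and each stromal group held only 2 libraries. CD74 counts were never below 33 in a library.

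DRA followed a similar order with a wider spread. In pregnant luminal epithelium it stood at 189.6 CPM in mare B, 518 in C, 1712 in M and 98.1 in U, and in cyclic luminal epithelium at 133 in B, 353 in C, 714 in J, 694 in M and 297 in U. The pregnant library of mare M thus held more than any other library, with 334 of the 665 DRA counts of its group. In pregnant glandular epithelium DRA stood at 20.4, 34.1, 60.6 and 45.7 CPM in B, C, M and U, and in cyclic glandular epithelium at 75.8, 122, 6.75 and 33.4 CPM, where the value of mare M was 1 count and lay under the floor. Stroma held 86.3 CPM in M and 287 in U in pregnancy, against 836 in B and 96.1 in M in the cycle, so the stromal libraries overlapped with both the glandular and the luminal range. The means were 629 ± 744 CPM (SD, n = 4) and 438 ± 256 (n = 5) in pregnant and cyclic luminal, 40.2 ± 17.1 and 59.4 ± 50.3 (n = 4 each) in pregnant and cyclic glandular, and 187 ± 142 and 466 ± 523 (n = 2 each) in pregnant and cyclic stromal libraries. Every pair of neighbours in the order of the DRA means overlapped.

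B2M was measured in every library and, of the members, differed least between luminal and glandular epithelium. In pregnant luminal epithelium it stood at 1109.55 CPM in mare B, 2240.5 in C, 661 in M and 1149 in U, and in cyclic luminal epithelium at 1185 in B, 966 in C, 682 in J, 865 in M and 1266 in U. In pregnant glandular epithelium it stood at 177, 304, 332 and 207 CPM in B, C, M and U, and in cyclic glandular epithelium at 557, 907, 1992 and 484 CPM. Every pregnant glandular library lay below every cyclic glandular one, as was so for 1.02% of the genes tested between these states. The cyclic glandular libraries reached into the luminal range. Stroma held 837 CPM in M and 174 in U in pregnancy, and 619 in B and 102 in M in the cycle. The means were 1290.1 ± 671 CPM (SD, n = 4) and 993 ± 237 (n = 5) in pregnant and cyclic luminal, 255 ± 74.5 and 985 ± 696 (n = 4 each) in pregnant and cyclic glandular, and 505 ± 469 and 361 ± 366 (n = 2 each) in pregnant and cyclic stromal libraries. Neighbours in the order of the B2M means all overlapped.

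**Figure D1:**
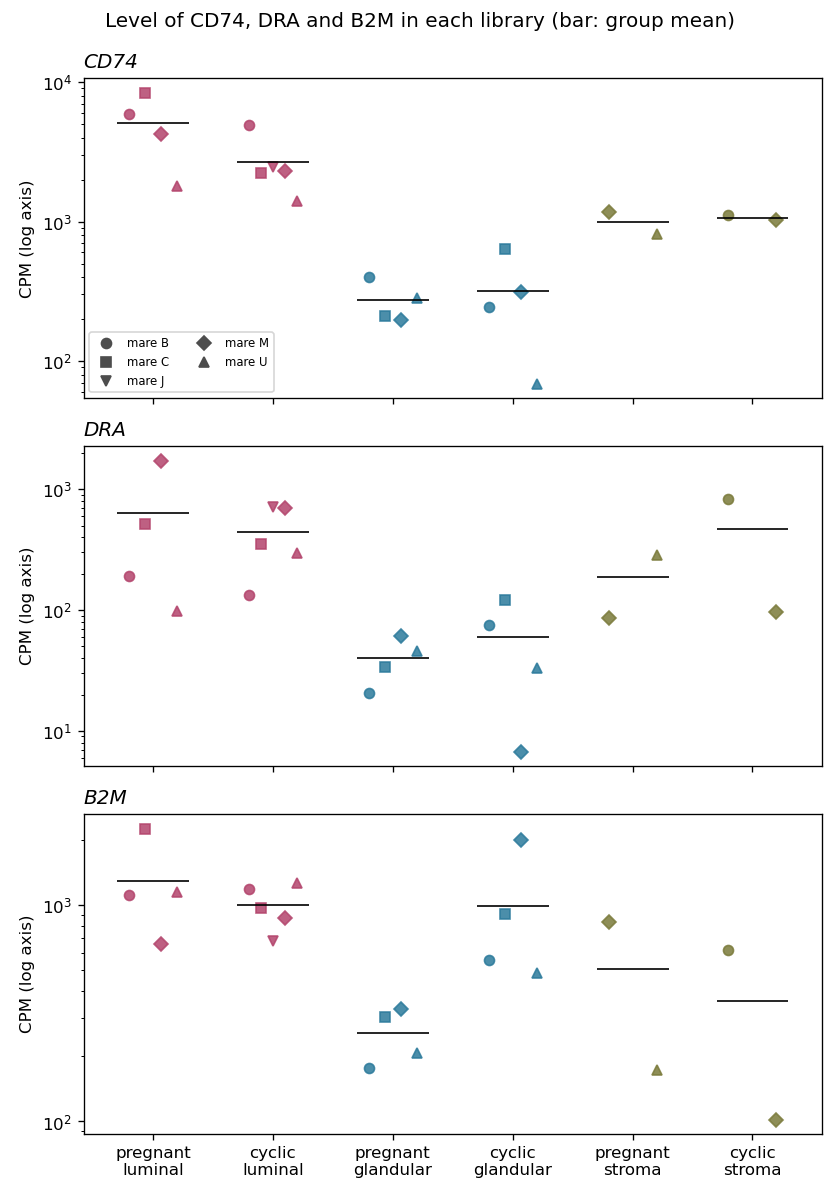
CPM (log axis) of CD74, DRA and B2M in each of 21 libraries, by group; symbols mark the mare and bars the group mean. All luminal libraries lie above all glandular ones for CD74, as for 0.362% of the genes tested. The glandular libraries of B2M lie at 177 to 332 CPM in pregnant and 484 to 1992 CPM in cyclic mares. Such a separation by state, with pregnancy lower, was seen for 1.02% of the genes tested.

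The luminal epithelium was set against the glandular epithelium of the same mares to ask which genes mark the cells that face the uterine lumen. All 3 members were higher in luminal epithelium. CD74 was 13.1-fold higher (log2 fold change 3.71 ± 0.39, estimate ± SE, edgeR adjusted p = 1.27e-18), DRA 6.76-fold (2.76 ± 0.58, adjusted p = 0.000113) and B2M 2.32-fold (1.22 ± 0.41, adjusted p = 0.0453), each from sums of counts in 4 mares. Of all 7174 genes tested, 6.94% passed the threshold and 3.29% were called higher in luminal epithelium, and the median log2 fold change of all genes was -0.25.

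In the sums over both states, CD74 stood at 5713 CPM in mare B, 3813 in C, 3244 in M and 1580.4 in U in luminal epithelium, against 301 in B, 327 in C, 216 in M and 180.04 in U in glandular epithelium. The invariant chain was therefore higher in luminal epithelium in each mare, and the lowest luminal sum was several times the highest glandular sum. DRA stood at 169 CPM in B, 389 in C, 1152 in M and 223 in U in luminal sums, against 64.3, 57.6, 47.5 and 41.7 CPM in the glandular sums of the same mares. B2M stood at 1228 CPM in B, 1284 in C, 842 in M and 1242 in U, against 480.4, 466, 676 and 379 CPM. The luminal and glandular sums did not overlap for any member, and B2M had the smallest gap in relation to its level. The share of all genes with sums that do not overlap was not counted.

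Within single biopsies, CD74 and DRA were higher in luminal than in glandular epithelium in 8 of 8 biopsies, which 1.92% of the genes tested also showed. The log2 difference of CD74 ran from 1.80 in cyclic mare C to 5.31 in pregnant mare C, with a median of 4.11. That of DRA was 0.81 in cyclic mare B, the smallest, and 4.82 in pregnant mare M, while cyclic mare M paired 223 luminal counts with 1 glandular count. B2M was higher in 7 of 8 biopsies, with differences of 2.65, 2.88, 1.00 and 2.47 in pregnant mares B, C, M and U and of 1.09, 0.09, -1.20 and 1.39 in the same mares in the cycle. The exception was cyclic mare M, where B2M stood at 865 CPM in luminal and 1992 CPM in glandular epithelium. For CD74 alone among the members, every luminal library lay above every glandular library, as it did for 0.362% of the genes tested.

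**Figure D2:**
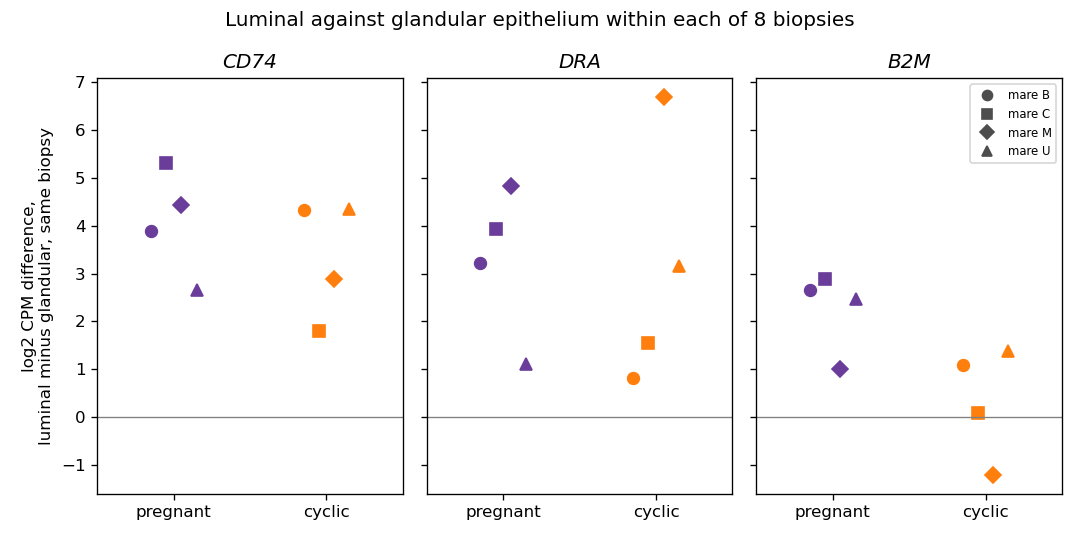
Log2 CPM difference, luminal minus glandular epithelium of the same biopsy, for CD74, DRA and B2M, by state; each symbol is 1 of 8 biopsies and the line marks no difference. CD74 and DRA lie above 0 in all 8 biopsies, B2M in 7, and the highest DRA point (cyclic mare M) rests on 1 glandular count.

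The calls differed in how firmly they stood. CD74 passed the threshold under all 12 alternatives run, at 3.39 to 4.14 on the log2 scale. DRA passed under 11 of 12 and missed it in the cyclic libraries alone (2.67, adjusted p = 0.262), where 1.2% of genes were called higher, against 1.53% in the pregnant libraries alone. B2M passed under 4 of 12: it was lost without the mare block (adjusted p = 0.104) and without mare B (0.339), C (0.313) or U (0.277), while it held without mare M (1.49, adjusted p = 0.00663). Its log2 fold change was 2.33 in pregnant libraries alone (adjusted p = 0.0709) and 0.39 in cyclic libraries alone (adjusted p = 0.928).

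Stroma served as the third compartment, in 4 biopsies of 3 mares. CD74 was higher in luminal epithelium than in stroma in 4 of 4 biopsies, with a log2 difference of 1.14 to 2.14, as 11.6% of the genes tested were, and the test gave 1.46 ± 0.80 (edgeR adjusted p = 0.553). DRA gave -0.71 ± 1.33 (adjusted p = 0.94) and B2M 1.17 ± 0.93 (adjusted p = 0.807), in a comparison in which 1.74% of 3512 genes passed. DRA in luminal epithelium lay above stroma in both biopsies of mare M and below it in pregnant U and cyclic B, and its direction turned without mare B (0.97) or without mare U (0.38). CD74 and DRA were lower in glandular epithelium than in stroma in 4 of 4 biopsies, as 4.74% of genes were, with estimates of -2.13 ± 0.95 (adjusted p = 0.371) and -2.45 ± 1.33 (adjusted p = 0.534). B2M gave -0.05 ± 0.97 (adjusted p = 0.99), and 1.3% of 4830 genes passed (63 genes, and 99 without the mare block). No member differed from stroma beyond the threshold in either epithelium, and the intervals of 2 SE were wide, from -0.14 to 3.07 for CD74 in luminal epithelium and from -2.00 to 1.90 for B2M in glandular epithelium.

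The comparison of pregnant with cyclic mares asked whether the presence of a conceptus changes these genes. No member passed the threshold in luminal epithelium, where 19 of 4344 genes did (0.437%; 12 genes with the mare as a replicate block). CD74 was higher in the pregnant biopsy of all 4 mares, by log2 differences of 0.28 in B, 1.91 in C, 0.87 in M and 0.37 in U, and 5.62% of the genes tested were higher in all 4. The groups overlapped, and the fitted log2 fold change was 0.92 ± 0.49 (edgeR adjusted p = 0.684), with an interval of 2 SE from -0.06 to 1.91. The CD74 estimate lay between 0.65 and 1.30 under the 17 alternatives, with adjusted p from 0.309 to 0.998. COL1A1 gave 1.99 ± 0.64 in the same comparison (adjusted p = 0.168), and its part in the CD74 values was not tested.

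DRA was higher in pregnant luminal epithelium in mares B, C and M and lower in mare U, with a fitted log2 fold change of 0.52 ± 0.68 (edgeR adjusted p = 0.973). That direction rested on the pregnant library of mare M: without it the estimate was -0.75 (adjusted p = 0.905), and it was -0.56 without both luminal libraries of mare M. B2M was higher in mare C alone, at 2240.5 CPM against 966 CPM, and lower by -0.09, -0.39 and -0.14 on the log2 scale in B, M and U. Its fitted change was 0.37 ± 0.58 (adjusted p = 0.973).

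In glandular epithelium B2M was lower in the pregnant biopsy of all 4 mares, by -1.65 in B, -1.58 in C, -2.59 in M and -1.23 in U on the log2 scale, as 3.97% of the genes tested were. The groups did not overlap, in that direction, for B2M and for 1.02% of the genes tested. The fitted log2 fold change was -1.89 ± 0.77, with an interval of 2 SE from -3.43 to -0.35, but it missed the threshold (edgeR adjusted p = 0.45), which 3 of 4816 genes passed (0.0623%). With the mare as a replicate block edgeR called 0 genes, with 132 genes at an unadjusted p under 0.05, and DESeq2 without the block also called 0. The B2M estimate was -1.54 without both glandular libraries of mare M and stayed between -2.39 and -1.32 under the 16 alternatives, with adjusted p from 0.204 to 1. CD74 gave -0.16 ± 0.85 and DRA -0.55 ± 1.39 (adjusted p = 0.999 for both), each higher in pregnancy in 2 mares and lower in the other two. Without the cyclic library of mare C the CD74 estimate was 0.55 and the DRA estimate 0.09.

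**Figure D3:**
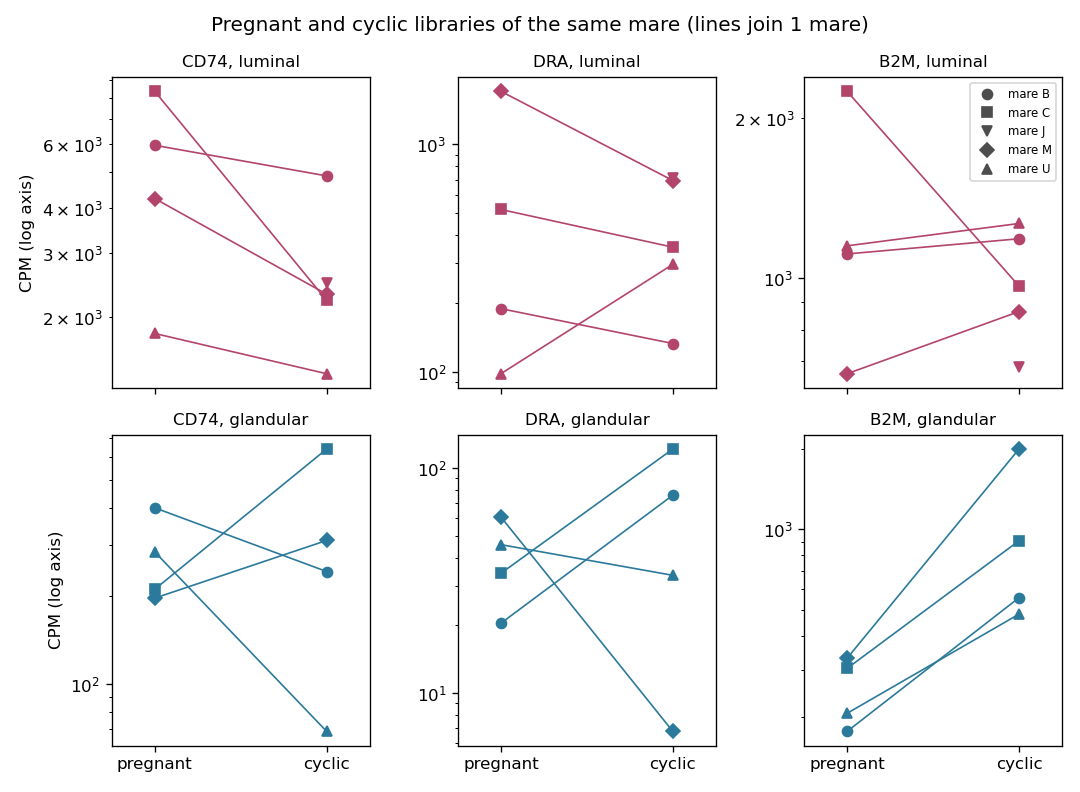
CPM (log axis) of each member in pregnant and cyclic luminal (top) and glandular epithelium (bottom); lines join the libraries of 1 mare, and the unjoined triangle is the cyclic luminal library of mare J. CD74 falls towards the cyclic side in all 4 mares in luminal epithelium, and B2M climbs towards it in all 4 mares in glandular epithelium.

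Whether pregnancy acted differently in the 2 epithelia was tested directly. The difference of the pregnancy effect, luminal minus glandular, was 1.88 ± 1.03 on the log2 scale for B2M (edgeR adjusted p = 0.867), 0.69 ± 0.87 for CD74 (adjusted p = 0.938) and 0.64 ± 1.49 for DRA (adjusted p = 0.968). None passed the threshold, which 0.0145% of 6884 genes did. In simulated counts this test recovered 0% of the genes changed by 4 on the log2 scale. The intervals of 2 SE ran from -0.19 to 3.95 for B2M and from -1.04 to 2.43 for CD74. In stroma, with 2 libraries a state, CD74 gave -0.03 ± 1.19, DRA -1.41 ± 1.75 and B2M 0.49 ± 1.52 (adjusted p = 0.999 for each). There edgeR called 0 of 2212 genes (0%), with 88 at an unadjusted p under 0.05, and DESeq2 called 4. Leaving out 1 library turned the direction of each member in stroma.

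The ratio of 2 members within a library is free of library size, and gene length cancels when a ratio is compared between libraries. CD74 counts per B2M count had a median of 3.63 (1.10 to 6.40) over 9 luminal libraries, 0.645 (0.142 to 2.27) over 8 glandular libraries and 3.25 (1.40 to 10.0) over 4 stromal libraries. The luminal and glandular ranges overlapped at their ends. CD74 counts per DRA count had medians of 6.28 (2.47 to 36.7), 5.73 (2.06 to 46.0) and 6.74 (1.33 to 13.6) in the same order of compartments. The glandular maximum is cyclic mare M with its 1 DRA count, and without that library the glandular median was 5.26 (2.06 to 19.7), and that of CD74 per B2M 0.695 (0.142 to 2.27). The medians of CD74 per DRA thus lay close together in the 3 compartments, within a wide range in each. Mare B had the highest luminal ratios of CD74 to DRA, 31.3 in pregnancy and 36.7 in the cycle.

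Of the 12 gene names on the class II list, only 4 were found in the count table, so the others were not assessed. Besides CD74 and DRA these were DRB, the beta chain that pairs with DRA, and DQA, the alpha chain of the DQ molecule. DRB and DQA held too few counts for the tests. DRB had 30 counts in pregnant luminal epithelium, of which 28 in mare C, 8 in cyclic luminal, 2 in pregnant glandular and 0 in cyclic glandular libraries and in both stromal groups. DQA had 0 counts in pregnant luminal, 10 in cyclic luminal, 1 in pregnant glandular, 0 in cyclic glandular, 0 in pregnant stromal and 10 in cyclic stromal libraries. How reads of these polymorphic genes were assigned is not given.

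Class I heavy chains, the partners of B2M, were found as equine genes by symbol. EQMHCB2 averaged 740 ± 319 CPM (SD, n = 4) in pregnant luminal, 365 ± 207 (n = 5) in cyclic luminal, 195 ± 161 (n = 4) in pregnant glandular and 620.1 ± 336 (n = 4) in cyclic glandular libraries. Its group means thus had the same lowest group, pregnant glandular epithelium, as those of B2M. The pregnancy estimate of EQMHCB2 was 1.01 ± 0.67 in luminal (edgeR adjusted p = 0.826) and -1.60 ± 0.83 in glandular epithelium (adjusted p = 0.712). EQMCE1 averaged 443 ± 122 CPM in pregnant luminal, 325 ± 110 in cyclic luminal, 184 ± 121 in pregnant glandular and 365 ± 172 in cyclic glandular libraries (n = 4, 5, 4 and 4). MHCX1 averaged 400.4 ± 330.4, 147 ± 92.2, 159 ± 134 and 239 ± 196 CPM in these groups. Between luminal and glandular epithelium the estimates were 0.55 ± 0.48 for EQMHCB2, 0.24 ± 0.49 for EQMCE1, 0.96 ± 0.61 for MHCX1 and 1.36 ± 1.03 for EQMHCC1, with adjusted p from 0.51 to 0.934. MHCB3, a further heavy chain, had at most 57 counts in a library and was not tested. These genes are near-identical copies, so their single values are uncertain. Of the 7 genes tested on the list of class I chains and B2M partners, B2M was the only one called, and the list median was 0.55. HFE, which pairs with B2M and regulates iron uptake, gave -2.75 ± 1.66 (adjusted p = 0.475), and FCGRT, the Fc receptor that carries antibodies across epithelia, gave -2.53 ± 1.72 (adjusted p = 0.557).

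The genes that prepare peptides were read from 2 further lists. Of 13 genes tested for class I peptide loading, 0 passed between luminal and glandular epithelium by edgeR (2 at an unadjusted p under 0.05, and 0 by DESeq2), where 6.94% of all genes passed, and the median was 0.20. CALR, a chaperone of the loading complex, came nearest (-1.34 ± 0.46, adjusted p = 0.0513) and passed without ribosomal RNA genes (adjusted p = 0.0365) and without mare C (0.047), followed by CANX, its membrane-bound relative (-0.78 ± 0.39, adjusted p = 0.311), and PSME1, a proteasome activator (1.98 ± 1.74, adjusted p = 0.717). Of 9 genes tested for class II processing in endosomes, 1 was lower, and the median was 0.91. This was CTSL, a lysosomal cysteine protease that can trim the invariant chain, at -6.34 ± 1.48 (adjusted p = 0.000743), where 3.65% of all genes tested were called lower, and it was lost in cyclic libraries alone (-5.88, adjusted p = 0.067). CTSL had 0 counts in all 4 pregnant luminal libraries and 7 and 1 counts in cyclic luminal mares C and M, against 48, 122 and 86 counts in pregnant glandular mares C, M and U, 0 in pregnant B, and 70, 98, 19 and 39 counts in cyclic glandular mares B, C, M and U. CTSS, the cathepsin that performs the last cleavage of the invariant chain in dendritic cells and macrophages, gave 1.46 ± 0.70 (adjusted p = 0.272), and CTSB, a further cathepsin, 1.57 ± 0.62 (adjusted p = 0.123). DESeq2 called both (adjusted p = 0.046 and 0.0375).

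Regulators of these genes were rarely counted or did not pass by edgeR, where 6.94% of all genes did. CIITA, the coactivator that class II transcription needs, had 0 counts in pregnant luminal, 1 in cyclic luminal, 4 in pregnant glandular, 0 in cyclic glandular, 1 in pregnant stromal and 0 in cyclic stromal libraries. NLRC5, its class I counterpart, had 1, 59, 7 and 0 counts in pregnant luminal, cyclic luminal, pregnant glandular and cyclic glandular libraries, of which 40 in cyclic luminal mare B. IFNG, which encodes interferon gamma, had 0 counts in all 21 libraries. These 3 genes were too low to test and were named after their counts were seen. Of 6 transcription factors tested between luminal and glandular epithelium edgeR called 0 (0 at an unadjusted p under 0.05, and 0 by DESeq2), with a median of -0.50, and the smallest p values belonged to NFYB (-2.46 ± 1.73), NFYC (-1.38 ± 1.36) and CREB1 (-0.61 ± 1.34), with adjusted p of 0.581, 0.771 and 0.938. Of 8 genes tested for interferon gamma signalling it also called 0 (1 at an unadjusted p under 0.05), with a median of 1.26. GBP5, an interferon-induced GTPase, gave 4.30 ± 1.53 (adjusted p = 0.066) and was the 1 gene of the list called by DESeq2 (adjusted p = 0.000162), and JAK1, the kinase at the receptor, -0.51 ± 0.48 (adjusted p = 0.755). CD44, which binds CD74 at the cell surface, was the only co-stimulation gene tested (3.42 ± 2.16, adjusted p = 0.506).

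**Figure D4:**
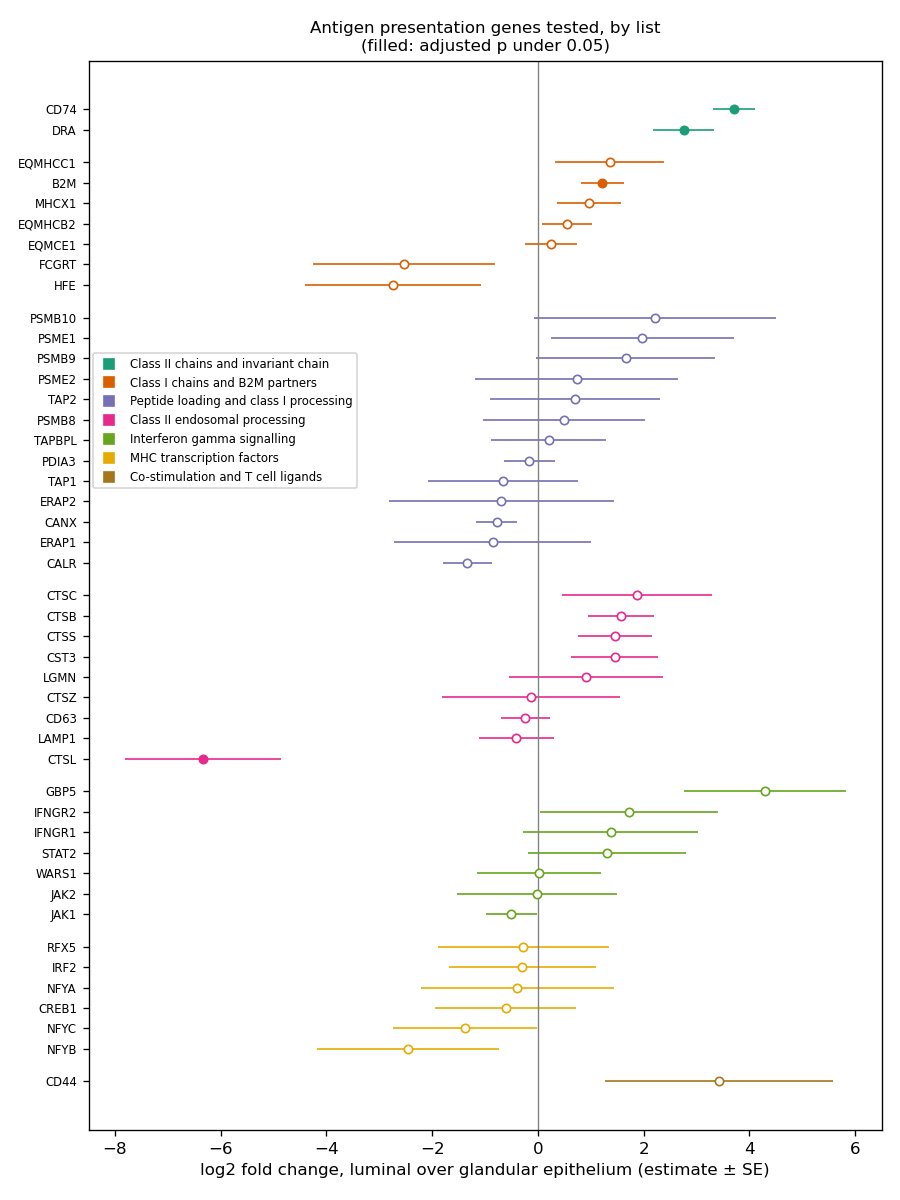
Log2 fold change (estimate ± SE) of tested genes of the 7 lists, luminal over glandular epithelium; filled symbols passed the adjusted p threshold of 0.05. CD74, DRA and B2M are filled on the right at 3.71, 2.76 and 1.22, and CTSL is the only filled symbol on the left, at -6.34.

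Between pregnant and cyclic luminal epithelium edgeR called 0 of the 31 genes tested of the 7 lists, with 2 at an unadjusted p under 0.05, where 0.437% of all genes passed, and DESeq2 called 1, GBP5 (adjusted p = 0.0485). The list medians were 0.72 for the 2 class II genes tested and 1.01 for 5 class I genes, against -0.04 for all genes. The 2 class II genes were the members CD74 and DRA themselves, and the class I genes included B2M. These 2 medians thus give no evidence apart from the members. The medians were 0.44 for 9 peptide loading genes and 0.59 for 6 class II processing genes. For 6 genes of interferon gamma signalling the median was 0.03 and for 2 transcription factors -0.57. GBP5 stood at 41.0, 113, 277 and 263 CPM in pregnant luminal mares B, C, M and U, and at 39.6, 31.5, 1.87, 0 and 3.30 CPM in cyclic luminal mares B, C, J, M and U. Every pregnant value of GBP5 lay above every cyclic one, by a narrow margin in mare B, as was so for 1.52% of the genes tested (3.47 ± 1.44, adjusted p = 0.424). EQMHCC1, a class I heavy chain, gave 3.18 ± 1.18 (adjusted p = 0.311), with 359 of its 404 pregnant luminal counts in mare B. Among the other genes with the smallest p of their lists, CTSC (-2.63), CD44 (-1.90), PSME2 (-1.39), NFYC (-1.02), STAT2 (-0.61) and IRF2 (-0.12) gave negative estimates. Positive ones came from PSMB9 (1.84), MHCX1 (1.44), JAK1 (1.33), CD63 (1.26), CTSS (1.18) and TAPBPL (1.06). None of these other genes passed (edgeR adjusted p from 0.707 to 0.995).

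Class II genes are also those of leukocytes, so leukocyte markers were read in the same libraries. PTPRC, the general leukocyte antigen CD45, had 1, 1, 0 and 28 counts in pregnant luminal mares B, C, M and U, and 123, 81, 69, 1 and 75 counts in cyclic luminal mares B, C, J, M and U. In the 4 luminal libraries with at most 1 PTPRC count, CD74 stood at 5935 and 8355 CPM in pregnant B and C, 4234 CPM in pregnant M and 2309 CPM in cyclic M. Their summed general leukocyte markers stood at 143, 220, 5.13 and 180.5 CPM in the same order, and their macrophage and dendritic cell markers at 79.4, 357, 71.8 and 769 CPM. The 5.13 CPM of pregnant M was 1 count, under the floor of that library (15.4 CPM), which also held 50 counts (256 CPM) of T and NK cell markers. Low PTPRC thus did not go with low sums in all 4. Of the defining macrophage genes, CD14, CD68 and CSF1R had 0 counts in pregnant luminal mares B and M, while CSF1R had 31 counts in pregnant C and 63 in cyclic M.

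Over the whole list of general leukocyte genes, 5 of 6 had a count, and their summed level ran from 5.13 to 220 CPM in pregnant luminal, 180.5 to 429 in cyclic luminal, 31.8 to 212 in pregnant glandular, 6.75 to 76.4 in cyclic glandular, 80.7 to 193 in pregnant stromal and 300.2 to 896 in cyclic stromal libraries. Of 19 macrophage and dendritic cell genes 17 had a count, with sums of 69.7 to 357 CPM in pregnant luminal, 57.8 to 769 in cyclic luminal, 31.8 to 127 in pregnant glandular, 27.0 to 104 in cyclic glandular, 105 to 279 in pregnant stromal and 312 to 1176 in cyclic stromal libraries. The B and plasma cell list, with 3 of 7 genes counted, summed to 0 to 116 CPM in pregnant luminal, 3.11 to 328 in cyclic luminal, 0 to 79.4 in pregnant glandular, 0 to 98.0 in cyclic glandular, 1.88 to 200.1 in pregnant stromal and 60.0 to 290.4 in cyclic stromal libraries. The T and NK cell list, with 13 of 14 genes counted, summed to 53.8 to 666 CPM in pregnant luminal, 31.1 to 156 in cyclic luminal, 2.27 to 13.6 in pregnant glandular, 4.17 to 103 in cyclic glandular, 5.63 to 15.1 in pregnant stromal and 0 to 339 in cyclic stromal libraries. T and NK cell markers thus stood higher in every pregnant luminal than in every pregnant glandular library, as CD74, DRA and B2M did. General leukocyte markers stood higher in every cyclic luminal than in every cyclic glandular library, as CD74 and DRA did. The share of all genes with either order was not counted. Between luminal and glandular epithelium 0 of the 4 genes tested of the general leukocyte and the macrophage lists passed by edgeR (0 at an unadjusted p under 0.05, and 0 by DESeq2). Of all genes tested there, 6.94% passed. All 4 estimates were positive: 3.03 ± 1.86 for FCER1G, 2.28 ± 1.75 for CYBB, 1.60 ± 1.38 for PTPRC and 0.09 ± 1.19 for LCP1. The other genes of these lists were not tested. Of 2 genes tested for T and NK cells 1 passed, GZMA, a granzyme of cytotoxic lymphocytes (7.31 ± 2.17, adjusted p = 0.0151), while CD3D gave 5.55 ± 2.62 (adjusted p = 0.262). The part of leukocytes in the levels of CD74, DRA and B2M was not tested.

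**Figure D5:**
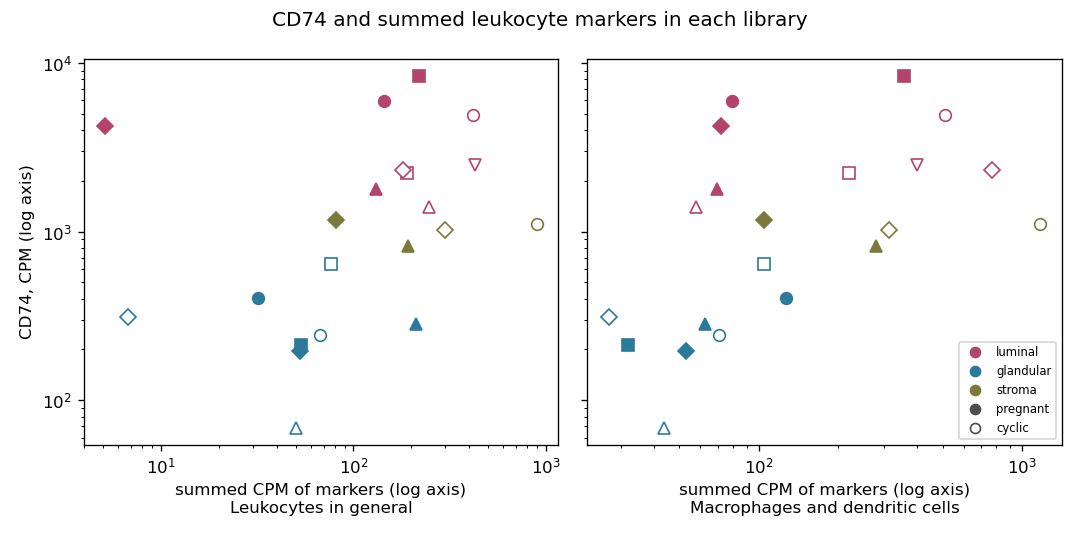
CD74 (CPM, log axis) against the summed CPM (log axis) of general leukocyte markers (left) and of macrophage and dendritic cell markers (right) in each library; colour gives the compartment, filled symbols are pregnant and open ones cyclic. Pregnant luminal mare M lies at 5.13 CPM of general leukocyte markers with 4234 CPM of CD74, and cyclic stromal mare B at 896 CPM with 1109 CPM of CD74. The value of 5.13 CPM is 1 count and lies under the floor of that library (15.4 CPM).

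Across all 21 libraries, log2 CPM of CD74 and DRA correlated with a Pearson r of 0.719 (Spearman rho 0.764), CD74 and B2M with 0.487 (0.594) and DRA and B2M with 0.236 (0.304). The libraries share mares and biopsies and differ in depth, so these values are descriptions. DRA ranked 21st in likeness to CD74 among 9786 genes, and B2M ranked 310th. The 5 genes most like CD74 over the 21 libraries were the unnamed gene 102149844 (r = 0.861), the efflux transporter ABCG2 (0.825), STK33 (0.822), the apical mucin MUC1 (0.778) and ITPRID2 (0.765). Those most like DRA were UPF3A (0.833), PEAK1 (0.765), RASSF8 (0.761), APLP2 (0.761) and LOC100056988 (0.737), and those most like B2M were SLC5A3 (0.734), 100066067 (0.732), DNAH12 (0.73), PPID (0.727) and TNKS1BP1 (0.726).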

How the data were processed

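Horse endometrial RNA was measured in 21 libraries of laser-captured tissue. Libraries were made with a kit for single cells, and some of them, not named, were amplified further, per the labels' protocols. The submitters' processing notes name Trimmomatic 0.32.2, a read trimmer, and HISAT2 2.0.3, an aligner. For the counting tool, strand rule, build and annotation, nothing is given in the sources used. Deposited by the authors were raw counts for 24942 gene IDs, and 2 tables of scaled signal, with 10307 genes in 21 libraries and 10410 genes in 19. Within a library, deposited signal and count differed by 1 constant factor (relative deviation at most 9.5e-15), so these tables served only as alternatives. Symbols came from a RefSeq gene table, used for names only, which matched 85.9% of the IDs.

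The tests used edgeR 4.0.16 in R 4.3.3 on the deposited counts: quasi-likelihood F-tests, two-sided, with TMM scaling, filterByExpr (minimum count 10, minimum total 15) and Benjamini-Hochberg adjustment over all genes tested, at a threshold of 0.05. Adjusted p values are from edgeR where no tool is given. The SE is the absolute log2 fold change divided by the square root of F, so it rests on spread shared between genes. CPM are counts normalised to the TMM-scaled library size over all 21 libraries, given as mean ± SD. Pregnant and cyclic libraries were compared within a compartment without a block. Compartments were compared on counts summed per mare, with the mare as a block, and the difference of the pregnancy effect with the biopsy as a block. Mare letters in the titles mark the same animal in both states, which pairs the libraries. Deviations of same-mare libraries from their group means correlated at 0.0185 to 0.0552 in luminal and at -0.0148 to 0.0415 in glandular epithelium.

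Alternatives were RLE factors, DESeq2 1.42.0, no filter, no ribosomal RNA genes, a mare block or none, each state alone, unsummed libraries, limma 3.58.1 on log2 of the deposited signal plus 1, and each library or mare left out. Leaving out both libraries of mare M in a compartment, or its pregnant biopsy, was chosen after seeing the data. In simulated counts of the luminal against glandular comparison (7174 genes), 54% of genes changed by 4 on the log2 scale were recovered, and 12% of those changed by 2. In simulated counts of the pregnancy comparison in luminal epithelium (4344 genes) these shares were 40% and 1%. At a change of 4 the share was 34% for pregnancy in glandular epithelium and 0% in stroma. It was 9% for luminal epithelium against stroma, 1% for glandular epithelium against stroma and 0% for the difference of the pregnancy effect. Tests with such low shares could miss large changes, so a missing call there does not show equal levels. The members and gene lists were chosen with earlier results of these data known. Of each list the text names members that passed the threshold, the 3 with the smallest p in the luminal against glandular and the luminal pregnancy comparisons, and the class I and class II chains; some genes of the lists are not reported here. Likeness lists hold the 5 genes of highest Pearson r of log2 CPM (prior count 2).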

Additional observations from a re-analysis of the deposited data

How the results depend on the processing

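CD74 kept its direction and its call between luminal and glandular epithelium under all 12 alternatives and DRA under 11, the exception being cyclic libraries alone (2.67). The B2M call there was lost with no filter (1.23), no replicate block (1.20), cyclic (0.39) or pregnant libraries alone (2.33) and unsummed libraries (1.37), and leaving out a mare gave 1.03 to 1.49. The DRA estimate for pregnancy in luminal epithelium turned in the deposited signal of 21 (-0.050) and 19 libraries (-0.79) and without both luminal libraries of mare M (-0.56), and ran from -0.75 to 0.87 with 1 library left out. In glandular epithelium the CD74 estimate turned with the mare as replicate block (0.16) and in the deposited signal (0.12 and 0.26), and ran from -0.46 to 0.55 with 1 library left out, as did DRA from -0.90 to 0.090. In stroma, leaving out 1 library gave -0.42 to 0.25 for CD74, -2.41 to 1.01 for DRA and -1.17 to 2.55 for B2M. No paired analysis of stroma was possible because its states share only mare M. Leaving out a mare gave -2.08 to 0.97 for DRA between luminal epithelium and stroma, and -0.22 to 1.49 for CD74 and -0.15 to 1.54 for DRA in the difference of the pregnancy effect. B2M between glandular epithelium and stroma was 1.02 without the pregnant biopsy of mare M. The replicate block changed no other call of a member. Genes called for pregnancy in luminal epithelium numbered 83 by DESeq2, 12 with no filter, 12 with the replicate block, 0 and 0 in the deposited signal by limma and 2 to 37 with 1 library left out. In glandular epithelium they numbered 0 with RLE factors, by DESeq2, with the block, in both tables of deposited signal and without both libraries of mare M, 34 with no filter and 0 to 28 with 1 library left out. In stroma they numbered 4 by DESeq2, 2 with no filter and 0 to 2 with 1 library left out. Genes called between luminal and glandular epithelium numbered 1010 by DESeq2, 120 in cyclic and 130 in pregnant libraries alone, 247 unsummed and 230 to 411 with 1 mare left out. Between luminal epithelium and stroma they numbered 474 by DESeq2, 29 with no filter and 18 to 36 with 1 mare left out. Between glandular epithelium and stroma they numbered 504 by DESeq2, 20 with no filter, 99 with no block, 9 without the pregnant biopsy of mare M and 0 to 45 with 1 mare left out. For the difference of the pregnancy effect they numbered 65 by DESeq2 and 0 without ribosomal RNA genes. Uncalled list genes whose sign turned were MHCX1 (-0.13), CTSS (-0.28), IRF2 (0.59) and PSMB9 (-0.57) in the deposited signal for pregnancy in luminal epithelium, where IRF2 was also 0.017 with RLE factors, 0.015 by DESeq2, 0.017 without both libraries of mare M and -1.46 to 0.27 with 1 library left out. Between luminal and glandular epithelium they were MHCX1 (-0.32), NFYC (0.54) and CREB1 (0.57) in cyclic libraries alone, JAK1 (0.39) in pregnant ones, and CREB1 with no block (0.051) and with 1 mare left out (-1.50 to 0.36). RLE factors moved the median of all genes by 0.15 for pregnancy in luminal, -0.13 in glandular epithelium and -0.24 in stroma, and by -0.28 between glandular epithelium and stroma. The cause of these changes was not tested. Depth limits DRA most, which had 1 to 92 counts in glandular libraries.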

Other observations

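The class I heavy chain genes differed between mares in a way that no comparison above uses. EQMHCC1 had 359 and 23 counts in pregnant and cyclic luminal epithelium of mare B and 24 and 153 counts in its pregnant and cyclic glandular epithelium. In mare C the same 4 libraries had 0, 1, 1 and 0 counts, and in mare M 0, 1, 1 and 1. In the stroma of mare M, 82 EQMHCC1 counts were found in pregnancy and 0 in the cycle. MHCX1 had 1, 2 and 3 counts in pregnant luminal, pregnant glandular and cyclic glandular epithelium of mare C, but 49 in its cyclic luminal epithelium, while the libraries of the other mares had 47 to 333. These genes were singled out after their values were seen, and the assignment of reads among near-identical copies is not given.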
